A study of Mus musculus with 23 samples.

Results

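The genes described here make cholesterol and fatty acids, or control and handle those products. They are listed by name. The list holds genes of the program that sterol regulatory element-binding proteins (SREBPs) are known to drive, with others that control it or handle its products. All 29 were found in both deposited tables, among 22524 genes in the first and 25700 in the second, and all 29 passed the filter on low values in both. Of them, 18 are enzymes on the route from acetyl-CoA to cholesterol, 4 regulate SREBPs, 2 handle finished sterol and 5 make fatty acids. The study examined macrophages of C57BL/6 mice in which the nuclear receptor PPARγ or the transcription factor Spic had been targeted, and its design text speaks of the few macrophage-like cells that remain without Pparg. Each library held cDNA of 1000 cells sorted by flow cytometry. The first table covers pups at day 7, with 3 libraries each of wild-type red pulp macrophages of the spleen (RPM_d7_WT), the same cells of vavCre pups (RPM_d7_vavCre), wild-type bone marrow macrophages (BMM_d7_WT) and those of vavCre pups (BMM_d7_vavCre). The second table covers spleen only. It holds 3 libraries of day 7 wild-type pups (RPM_d7_Spic_WT), 2 of day 7 Spic knockout pups (RPM_d7_Spic_KO), 2 of wild-type adults (RPM_TAM_WT) and 4 of adults labelled CreERT2 (RPM_TAM_CreERT2). vavCre is a recombinase driven by the Vav promoter, which is active across blood-forming cells and not in macrophages alone. CreERT2 is a recombinase that tamoxifen switches on. The labels do not name the floxed gene, the promoter of CreERT2 or the meaning of TAM, and do not say that replicates came from separate animals, so p-values measure the spread between libraries. In what follows vavCre, Spic_KO and CreERT2 name the libraries that carry those labels.

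Cholesterol synthesis starts from acetyl-CoA, passes through mevalonate and the isoprenoid diphosphates to squalene, closes the sterol ring to lanosterol, and then trims lanosterol to cholesterol. When membranes of the endoplasmic reticulum run low in sterol, the escort protein Scap carries SREBPs to the Golgi, where they are cut and released to switch on synthesis genes. Insig1 and Insig2 hold Scap back when sterol is plentiful. Red pulp macrophages and the central macrophages of erythroblastic islands engulf red cells or expelled nuclei and so receive cholesterol with the membranes they take up, which they store as esters or export through transporters.

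The start regions of 4 genes are shown because 3 of them (Nsdhl, Soat1 and Ebp) changed in comparisons described below and Hmgcs1 alone carried the sterol regulatory element searched for. Each window is the RefSeq promoter of build GRCm38.p6, from 250 bases before to 50 after the gene's start, printed 5′ to 3′ on the gene's strand. Capitals mark CCAAT boxes (CCAAT, or ATTGG on the other strand) and, in Hmgcs1, the sterol regulatory element TCACNCCAC.
Nsdhl, chrX:72918271-72918570, plus strand: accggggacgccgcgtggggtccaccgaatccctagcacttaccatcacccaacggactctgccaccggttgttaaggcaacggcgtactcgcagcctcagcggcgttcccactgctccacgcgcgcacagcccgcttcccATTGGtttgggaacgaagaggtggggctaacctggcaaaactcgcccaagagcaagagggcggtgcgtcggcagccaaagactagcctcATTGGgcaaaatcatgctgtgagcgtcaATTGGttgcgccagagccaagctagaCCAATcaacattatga
Soat1, chr1:156474279-156474578, minus strand: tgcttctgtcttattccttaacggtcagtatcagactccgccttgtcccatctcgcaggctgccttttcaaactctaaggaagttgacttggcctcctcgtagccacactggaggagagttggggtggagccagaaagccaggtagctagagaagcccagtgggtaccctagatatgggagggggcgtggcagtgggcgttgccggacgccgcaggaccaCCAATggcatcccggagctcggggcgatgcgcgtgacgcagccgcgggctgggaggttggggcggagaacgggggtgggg
Ebp, chrX:8193463-8193762, minus strand: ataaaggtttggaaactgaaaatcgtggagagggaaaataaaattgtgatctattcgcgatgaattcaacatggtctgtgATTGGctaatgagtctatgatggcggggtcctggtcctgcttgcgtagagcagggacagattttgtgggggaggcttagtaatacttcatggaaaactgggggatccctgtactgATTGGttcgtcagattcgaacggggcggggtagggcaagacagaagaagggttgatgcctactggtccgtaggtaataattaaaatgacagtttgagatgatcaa
Hmgcs1, chr13:119690101-119690400, plus strand: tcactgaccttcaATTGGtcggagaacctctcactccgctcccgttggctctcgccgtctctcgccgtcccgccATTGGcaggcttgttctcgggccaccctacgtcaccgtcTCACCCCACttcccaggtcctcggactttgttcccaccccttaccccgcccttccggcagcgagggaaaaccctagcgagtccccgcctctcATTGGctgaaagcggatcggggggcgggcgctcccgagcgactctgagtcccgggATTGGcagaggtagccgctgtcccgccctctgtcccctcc
The table of start regions had entries for 23 of the 29 genes, and none for Fdft1, Fdps, Scd1, Scd2, Sqle and Stard4. Searched on both strands, CCAAT was present in 19 of the 23 genes and in 41.06% of all 27025 genes of the table. It occurred 4 times each in the windows of Nsdhl and Hmgcs1, 2 times in that of Ebp and 1 time in that of Soat1. TCACNCCAC was present in 1 of the 23, Hmgcs1, and in 1.44% of all genes. GAGGAA, the core of the PU box that Spic and other ETS-family factors can bind, was present in 6 of the 23 and in 31.25% of all genes. These 6 were Acat2, Pmvk, Tm7sf2, Dhcr7, Scap and Elovl6. The direct repeat AGGTCANAGGTCA, the form of element that PPARγ binds with RXR, was present in 0 of the 23 and in 0.05% of all genes. None of these 4 patterns contains another, and a match describes letters only.

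Values are normalised read counts that the authors scaled per library, and they compare only within a table. The reads behind them, recovered from the steps between low values, numbered 4.26 to 21.7 M per library for the first table. For the second the range was 0.693 to 6.29 M. Within the second table the 4 CreERT2 libraries were the shallowest, at 0.693 to 1.67 M. The 2 Spic_KO libraries correlated at 0.675 across genes with each other, against 0.925 to 0.939 for the mean of each Spic_WT library with its group, and Spic_KO replicate 1 matched a Spic_WT library best. Spic_KO calls lost and directions changed when 1 of these libraries is left out are given below. Transcripts of the 12 macrophage markers were above 0 in every library of both tables. Spic itself was 931 and 1236 in the Spic_KO libraries and 1993 to 3110 in Spic_WT. Pparg was 1550 to 2124 in RPM_d7_WT and 2496 to 4002 in RPM_d7_vavCre. In marrow the wild-type libraries gave 1601 to 1703 and the vavCre ones 1813 to 2972. Both were counted over the whole gene, and the labels do not say which exons were removed, so these counts do not check the deletion.

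In wild-type pups the synthesis genes differed widely in level. Levels between genes were compared per kb of the principal transcript in GENCODE vM21. The order rests on this division, which assumes that reads spread evenly along a transcript. That was not checked, and the RNA was primed with oligo-dT. Undivided, Soat1 (mean 941) and Fdft1 (936) lay above Ebp (704) in RPM_d7_WT. In RPM_d7_WT the highest was Ebp, the isomerase that moves the double bond of the sterol ring, at 404 ± 27.5 normalised counts per kb (SD, n = 3). Below it lay Fdft1, squalene synthase, at 253 ± 11.03 per kb, and Fdps, farnesyl diphosphate synthase, at 242 ± 26.4 per kb, which did not differ beyond their spread. Pmvk, phosphomevalonate kinase, followed at 200 ± 69.5 per kb. The lowest were Hsd17b7, a 3-keto-sterol reductase, at 9.61 per kb, Idi1, the isopentenyl diphosphate isomerase, at 6.24 per kb and Elovl6, which lengthens palmitate, at 5.05 per kb. The first enzymes of fatty acid synthesis were also low, with acetyl-CoA carboxylase Acaca at 13.99 per kb and fatty acid synthase Fasn at 14.8 per kb. In BMM_d7_WT the 4 highest per kb were the same 4 genes, with Ebp at 357 ± 104 and Fdft1 at 272 ± 40.6. Pmvk and Fdps came next there, at 225 ± 30.9 and 207 ± 98.3 per kb, and these 4 neighbours overlapped in their SDs or ranges.

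**Figure D1:**
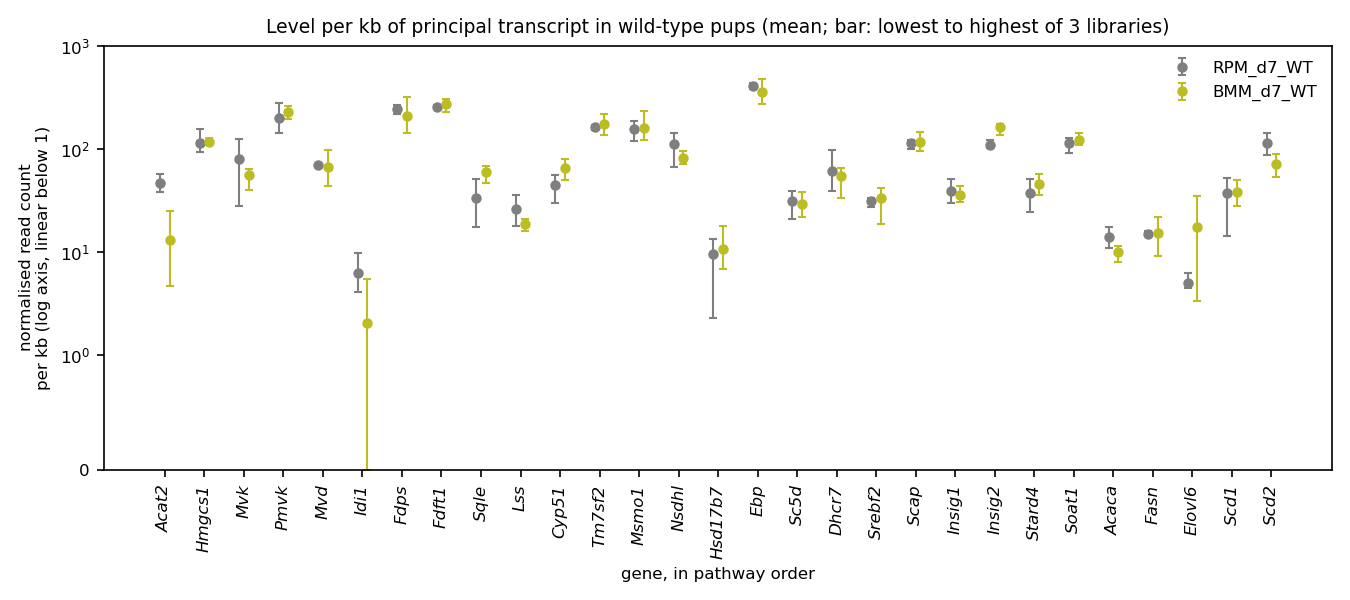
Level of each synthesis gene per kb of principal transcript in wild-type pups, in pathway order on the x axis, with normalised counts per kb on a log axis that is linear below 1. Points are means and bars run from the lowest to the highest of 3 libraries. Ebp is highest per kb in both tissues, at 404 in spleen and 357 in marrow, an order that depends on the division by length.

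Parts of 6 genes overlap a neighbour's exons by more than 5% of their exon bases, and no source used here says whether strand was used in counting. The largest shares were 26.71% of Fdps with Gm43738 on the same strand and 18.31% of Fdft1 with Ctsb on the opposite strand. Ctsb, cathepsin B, is abundant in macrophages, at 54830 to 91130 in pups of the first table and 6880 to 14620 across the second, so reads of Fdft1 and Ctsb cannot be told apart where they overlap. The others were Scap (13.23%), Hmgcs1 (12.12%), Tm7sf2 (12.08%) and Idi1 (9.22%). Scd1 and Scd2 are close paralogs, as are Insig1 and Insig2, and reads shared by copies are uncertain.

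In the spleen of vavCre pups 2 of the 29 genes were higher than in wild type and 0 were lower (limma-trend, Benjamini-Hochberg adjusted p under 0.05 over 15130 genes). Among all genes tested 5.52% were called, 2.98% higher and 2.54% lower. The 2 genes were Scd2, a stearoyl-CoA desaturase that makes oleate and palmitoleate, and Soat1, the sterol O-acyltransferase that esterifies cholesterol for storage. None of the 18 sterol enzymes passed the test, and 10 had positive and 8 negative log2 changes, where 46.6% of all genes had positive ones. The median log2 change of the 29 was -0.02, equal at this precision to that of all genes tested, -0.02. Libraries of the groups did not overlap for 7 of the 29 (24.1%), against 24% of all genes tested.

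In the marrow of vavCre pups 3 of the 29 genes were higher and 1 lower, where 7.81% of all genes tested were called, 3.41% higher and 4.4% lower. Scd2 and Soat1 were again higher, together with Nsdhl, a dehydrogenase that removes the C4 methyl groups of the sterol ring. Scd1, the other stearoyl-CoA desaturase, was lower. Of the 18 sterol enzymes 1 passed the test, 12 had positive and 6 negative log2 changes, and their median was 0.16 (0.018 without BMM_d7_vavCre replicate 1). Among all genes 46.1% had positive changes. The median over the 29 was 0.01 and that over all genes -0.04. Libraries did not overlap for 6 of the 29 (20.7%), against 19.8% of all genes.

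**Figure D2:**
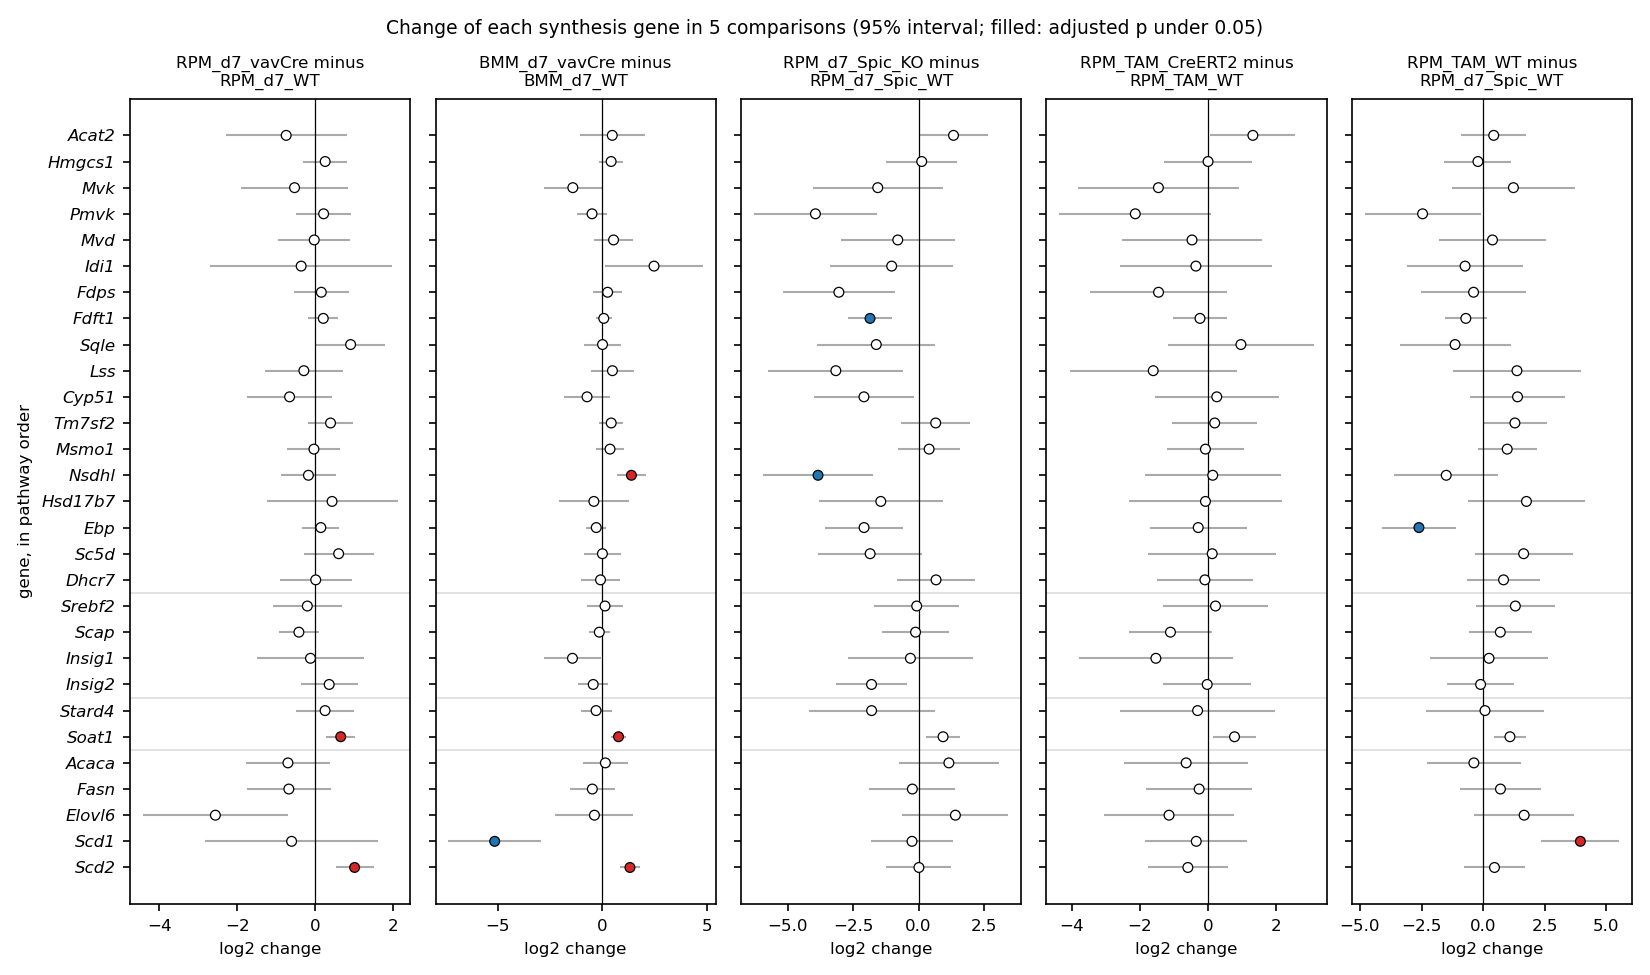
Log2 change of each of the 29 genes, in pathway order on the y axis, in 5 comparisons, each with its 95% interval from limma-trend. Filled points passed an adjusted p of 0.05 (red higher, blue lower). The sterol enzymes lie on both sides of 0 in the vavCre panels, and 13 of 18 lie below 0 in the Spic_KO panel.

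Scd2 (ENSMUSG00000025203, chr19:44293674-44306864, plus strand, GRCm38) separated the genotypes in both tissues. In the spleen it was 598, 473 and 778 in wild type and 1159, 1152 and 1371 in vavCre. Every vavCre library lay above every wild-type one, and the mean went from 616 ± 153 to 1227 ± 124 (SD, n = 3 each). The log2 change was 1.02 (SE 0.23, limma-trend adjusted p = 0.0111), a 2.03-fold difference. In the marrow Scd2 was 392, 288 and 485 in wild type and 902, 1107 and 853 in vavCre, again without overlap. The log2 change there was 1.32 (SE 0.23, limma-trend adjusted p = 0.00117), a 2.49-fold difference. The marrow call held under every alternative run, with limma, edgeR or DESeq2 adjusted p from 2.56e-06 to 0.00765. The spleen call was lost without RPM_d7_WT replicate 2 (limma-trend adjusted p = 0.0792) or RPM_d7_vavCre replicate 3 (adjusted p = 0.0676).

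Scd1 (ENSMUSG00000037071, chr19:44394455-44407879, minus strand) is the neighbouring paralog and did not show the same pattern. In the spleen it was 68.9, 213 and 254 in wild type and 144, 154 and 47.6 in vavCre, so the groups overlapped, and its log2 change was -0.60 (SE 1.06, limma-trend adjusted p = 0.887). In the marrow it was 135, 240 and 180 in wild type and 0, 1.21 and 58.9 in vavCre, which rest on 0, 1 and 26 reads. The group mean went from 185 ± 52.8 to 20.02 ± 33.6, with most of the vavCre signal in 1 library. The log2 change was -5.15 (SE 1.06, limma-trend adjusted p = 0.00424). Count tests on the recovered reads did not call it: edgeR gave -3.31 (adjusted p = 0.0999) and DESeq2 -3.22 (adjusted p = 0.0709).

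Soat1 (ENSMUSG00000026600, chr1:156424525-156474331, minus strand) was 766, 987 and 1070 in wild-type spleen and 1549, 1341 and 1542 in vavCre spleen. The means were 941 ± 157 and 1477 ± 118 (SD, n = 3 each), with no overlap between the libraries. The log2 change was 0.66 (SE 0.17, limma-trend adjusted p = 0.0302), a 1.58-fold difference. This call was lost on leaving out any 1 of 5 of the 6 libraries, with adjusted p between 0.0542 and 0.180: RPM_d7_WT replicates 1 and 2 and all 3 RPM_d7_vavCre replicates. In the marrow Soat1 was 939, 908 and 1189 in wild type and 1727, 1863 and 1566 in vavCre. There the log2 change was 0.77 (SE 0.17, limma-trend adjusted p = 0.0089), a 1.71-fold difference that was called under every alternative run.

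Nsdhl (ENSMUSG00000031349, chrX:72918557-72958514, plus strand) differed between genotypes in the marrow. It was 165, 153 and 208 in wild type and 469, 379 and 534 in vavCre, which did not overlap. The log2 change was 1.39 (SE 0.33, limma-trend adjusted p = 0.0137), a 2.61-fold difference, which reached adjusted p = 0.0528 without BMM_d7_vavCre replicate 3. In the spleen Nsdhl was 260, 145 and 311 in wild type and 155, 245 and 216 in vavCre, with a log2 change of -0.17 (SE 0.33, limma-trend adjusted p = 0.904). The difference between the tissues in this response was -1.56 on the log2 scale (SE 0.47), which missed the threshold with a limma-trend adjusted p of 0.446.

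**Figure D3:**
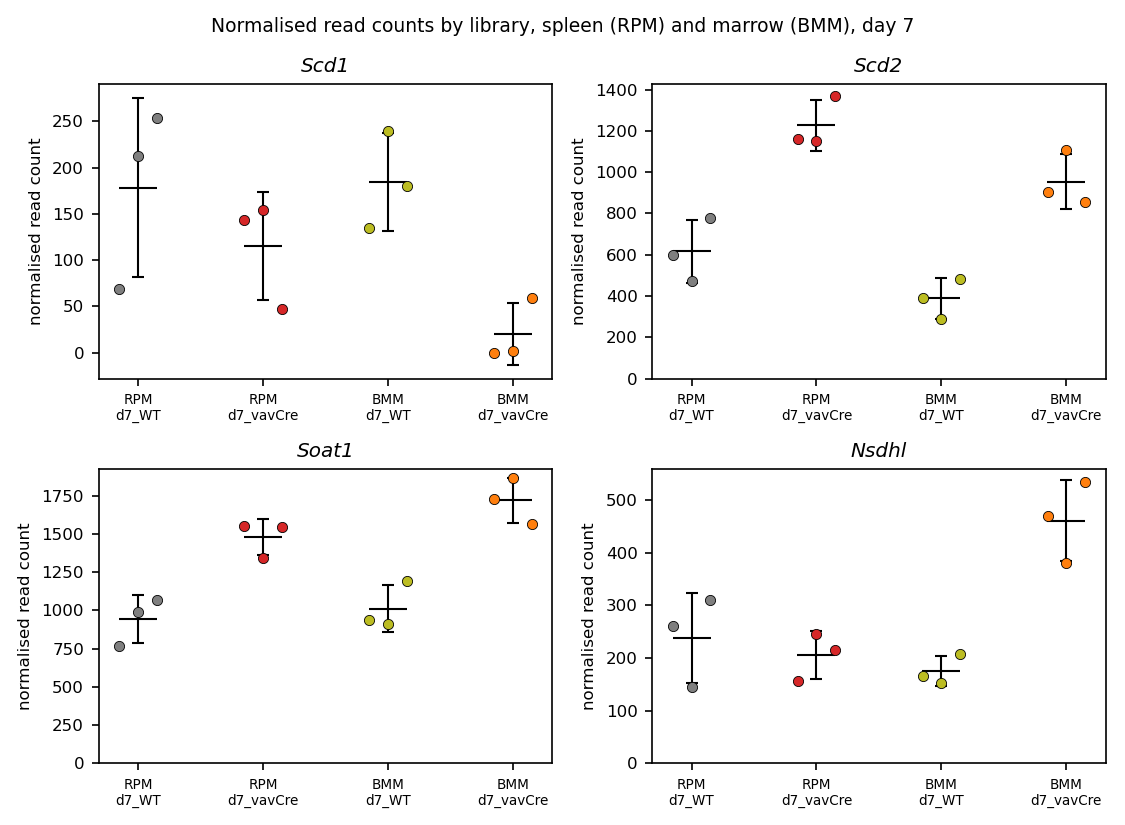
Normalised read counts of Scd1, Scd2, Soat1 and Nsdhl on the y axis in each library of the 4 pup groups of the first table. Points are libraries, the horizontal line is the mean and bars are ± 1 SD (n = 3). Scd2 and Soat1 lie higher in vavCre than in wild type in both tissues, Nsdhl in marrow, and 2 of 3 vavCre marrow libraries are at or near 0 for Scd1.

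Along the route to squalene no gene passed the test in either tissue. At its entry Acat2, the cytosolic acetoacetyl-CoA thiolase, had log2 changes of -0.74 in spleen and 0.47 in marrow, and HMG-CoA synthase Hmgcs1 of 0.26 and 0.42. For mevalonate kinase Mvk the vavCre marrow libraries, at 12.6 to 65.4, all lay under the wild-type ones, at 66.4 to 107. Its log2 change there was -1.41 (SE 0.66, limma-trend adjusted p = 0.229). Pmvk had log2 changes of 0.22 in spleen and -0.50 in marrow, and the decarboxylase Mvd of -0.02 and 0.53. Idi1 was 0 to 16.7 in wild-type marrow and 6.79 to 48.1 in vavCre marrow, a log2 change of 2.47 (SE 1.12, limma-trend adjusted p = 0.214) with overlap. The log2 changes in spleen and marrow were 0.16 and 0.25 for Fdps and 0.21 and 0.06 for Fdft1. Fdft1 was 923, 982 and 904 in RPM_d7_WT and 880, 1226 and 1184 in RPM_d7_vavCre. In BMM_d7_WT it was 833, 1068 and 1112, and in BMM_d7_vavCre 1059, 959 and 1114.

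From squalene to cholesterol Nsdhl in marrow was the 1 gene that passed. Squalene epoxidase Sqle, which adds the first oxygen, was 48.4 to 140 in wild-type spleen and 151 to 175 in vavCre spleen, without overlap. Its log2 change was 0.92 (SE 0.42, limma-trend adjusted p = 0.288), and in marrow it was 0.01. Lanosterol synthase Lss had log2 changes of -0.29 in spleen and 0.48 in marrow, and the demethylase Cyp51 of -0.65 and -0.73. Tm7sf2, a sterol C14 reductase, did not overlap between genotypes in spleen, where wild type gave 224 to 251 and vavCre 310 to 317, but its log2 change of 0.40 had a limma-trend adjusted p of 0.551. The remaining trimming enzymes had log2 changes from -0.41 to 0.61 in the 2 tissues: Msmo1, Hsd17b7, Ebp, Sc5d and Dhcr7. Ebp was 712, 653 and 748 in RPM_d7_WT and 915, 647 and 804 in RPM_d7_vavCre. In marrow Ebp was 469, 822 and 577 in wild type and 513, 487 and 482 in vavCre, which overlapped as they did in spleen.

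None of the 4 regulators passed the test in either tissue. Srebf2, which encodes SREBP2, was 164, 170 and 140 in RPM_d7_WT and 169, 141 and 109 in RPM_d7_vavCre. In marrow it was 94.5, 203 and 210 in wild type and 115, 165 and 276 in vavCre, so that the genotypes overlapped in both tissues. Scap was 508, 518 and 423 in wild-type spleen and 330, 407 and 350 in vavCre spleen, a log2 change of -0.41 (SE 0.24, limma-trend adjusted p = 0.463) without overlap. In marrow Scap was 400, 609 and 458 in wild type and 538, 402 and 378 in vavCre, which overlapped. Insig1 was 99.1, 138 and 79.8 in RPM_d7_WT and 77.9, 131 and 84.1 in RPM_d7_vavCre. In marrow it was 119, 89.4 and 82.6 in wild type and 73.3, 60.6 and 9.05 in vavCre, a log2 change of -1.43 (SE 0.65, limma-trend adjusted p = 0.218). Insig1 is itself a known SREBP target, and its marrow libraries did not overlap. Insig2 was 276, 273 and 329 in RPM_d7_WT and 279, 493 and 384 in RPM_d7_vavCre. In marrow Insig2 was 364, 472 and 471 in wild type and 620, 212 and 247 in vavCre, with 1 vavCre library above and 2 below all wild-type libraries. The sterol carrier Stard4 had log2 changes of 0.26 in spleen and -0.30 in marrow.

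On the fatty acid side Acaca and Fasn did not pass in either tissue. Acaca was 104 to 167 in wild-type spleen and 52.4 to 100.6 in vavCre spleen, without overlap, a log2 change of -0.69 (SE 0.52, limma-trend adjusted p = 0.601). The log2 changes of Acaca in marrow and of Fasn in spleen and marrow were 0.14, -0.67 and -0.48, all with overlap. Elovl6 (ENSMUSG00000041220, chr3:129532355-129638495, plus strand) was 26.6, 26.6 and 37.0 in RPM_d7_WT and 3.07, 1.70 and 11.9 in RPM_d7_vavCre, so every vavCre library lay below the wild type. Its log2 change was -2.56 (SE 0.89, limma-trend adjusted p = 0.118), and of the alternatives run DESeq2 alone called it (adjusted p = 0.0469). In marrow Elovl6 was 20.1, 208 and 81.5 in wild type and 73.3, 52.1 and 40.7 in vavCre, which overlapped.

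Other gene groups moved in the same libraries. Of 18 erythroid markers 13 were lower in vavCre spleen and 15 in vavCre marrow. Their summed share of signal fell from 2.34 to 3.56% in RPM_d7_WT to 1.19 to 1.64% in RPM_d7_vavCre. In marrow it went from 2.62 to 3.82% in wild type to 0.993 to 1.45% in vavCre, and no marker was at 0 in any of these 12 libraries. Of 20 cell cycle genes 8 were lower in spleen and 9 in marrow, with sums of 0.296 to 0.303% against 0.141 to 0.185% in spleen and 0.269 to 0.338% against 0.132 to 0.207% in marrow. Of 12 macrophage markers 1 was higher and 3 lower in spleen, and 3 higher and 3 lower in marrow. Of 12 neutrophil markers 1 was higher in each tissue, and of 10 B cell markers 1 was lower in spleen and 2 in marrow. The 18 sterol enzymes summed to 0.0435 to 0.0506% in RPM_d7_WT and 0.0467 to 0.0498% in RPM_d7_vavCre. The marrow sums were 0.0432 to 0.0525% for wild type and 0.0445 to 0.0554% for vavCre, which overlapped as in spleen. The part of the erythroid, cell cycle, neutrophil and B cell transcripts in the results for Scd2, Soat1, Nsdhl and Scd1 was not tested. In such pooled cells, fewer cells of a type and less RNA per cell cannot be told apart.

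**Figure D4:**
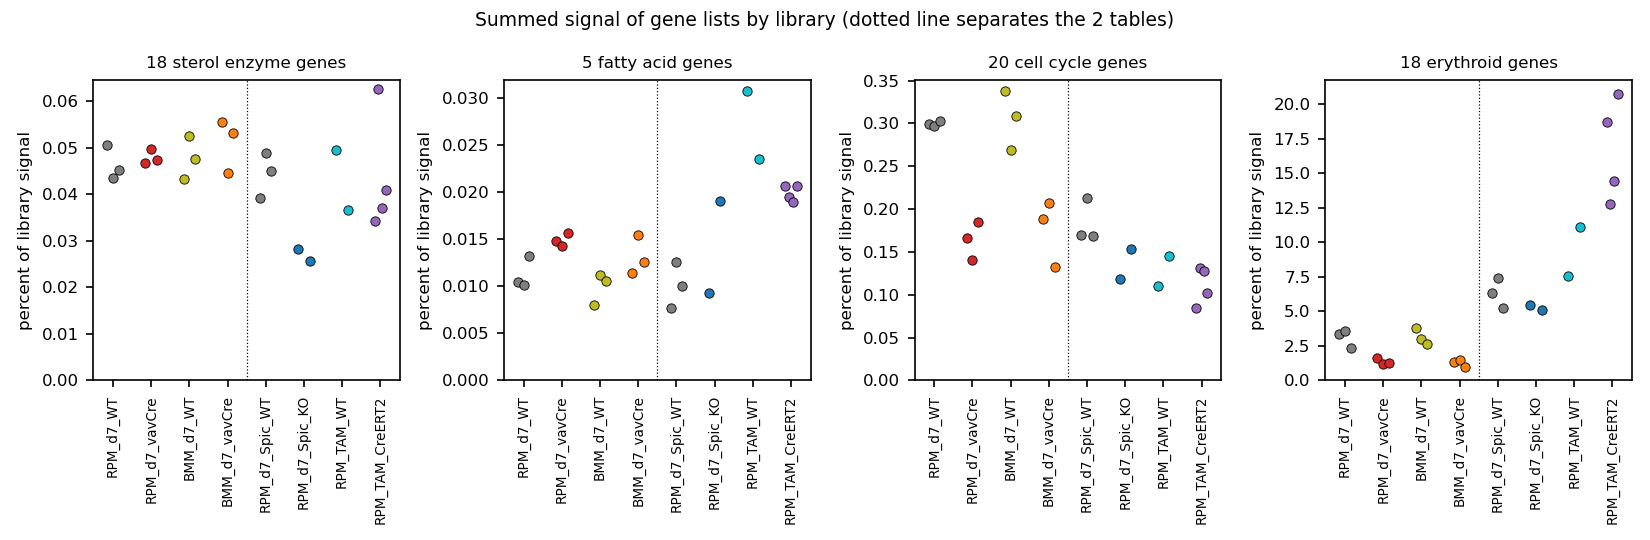
Summed normalised counts of 4 gene lists as a percent of each library's signal on the y axis, by group on the x axis, with 1 point per library and a dotted line between the 2 tables, which are scaled separately. The sterol enzyme sums overlap between genotypes in the first table and are lowest in the 2 Spic_KO libraries of the second, at 0.0257 and 0.0283%. Erythroid and cell cycle sums are lower in vavCre than in wild type.

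The response to vavCre was compared between spleen and marrow by an interaction term. It called 0 of the 29 genes, and 0.119% of all genes tested. At an unadjusted p under 0.05 limma-trend gave 2 members, Nsdhl and Scd1, while edgeR and DESeq2 each called 0 and had 1 at that unadjusted p. For Soat1 the difference between tissues was -0.11 on the log2 scale (95% interval -0.63 to 0.41) and for Scd2 -0.30 (-0.99 to 0.39). For Scd1 it was 4.55 (SE 1.49, limma-trend adjusted p = 0.523), which became a call at 6.33 (adjusted p = 0.0074) without BMM_d7_vavCre replicate 3, the 1 vavCre marrow library with more than 1 Scd1 read.

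Between wild-type spleen and marrow macrophages 0 of the 29 genes passed the test, where 3.89% of all genes were called. With limma-trend 4 had an unadjusted p under 0.05. edgeR called 0 and had 2 at that level, and DESeq2 called 0 and had 4. Acat2 was 85.3 to 128 in RPM_d7_WT and 10.5 to 56.4 in BMM_d7_WT, without overlap, a log2 difference of 2.08 (SE 0.74, limma-trend adjusted p = 0.150). Its marrow values rest on 11, 12 and 54 reads. Insig2 was the other gene whose libraries did not overlap, lower in spleen by 0.57 (95% interval -1.30 to 0.16 for spleen minus marrow). Together 2 of 29 did not overlap (6.9%), against 20.6% of all genes. The macrophage markers differed between these tissues, with 7 of 12 higher in spleen.

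Between the vavCre groups of the 2 tissues 1 gene was higher in spleen, Scd1, and 1 lower, Elovl6, where 3.5% of all genes were called, 2.68% higher and 0.82% lower. Scd1 was 47.6 to 154 in spleen and 0 to 58.9 in marrow, which overlapped (log2 difference 4.34, SE 1.06, limma-trend adjusted p = 0.0266). Elovl6 was 1.70 to 11.9 in spleen and 40.7 to 73.3 in marrow (-3.39, SE 0.89, limma-trend adjusted p = 0.0397). Both calls were lost under 10 of their 14 alternatives, among them edgeR (adjusted p = 0.246 and 0.0565), and DESeq2 did not call Scd1 (adjusted p = 0.237). Nsdhl had a log2 difference of -1.17 between vavCre spleen and vavCre marrow at a limma-trend adjusted p of 0.0627, and DESeq2 called it lower in spleen (-1.18, adjusted p = 0.0101). Markers of other cells differed between these groups as well. Of 12 macrophage markers 7 were higher in vavCre spleen, with sums of 2.62 to 2.92% of signal against 1.85 to 1.90% in marrow. Of 18 erythroid markers 5 were higher, although their sums overlapped. Of 12 neutrophil markers Ltf was higher, with sums of 0.0286 to 0.0558% and 0.0202 to 0.0266%, and 4 to 6 of the markers were at 0 in each vavCre marrow library. Of 10 B cell markers Igll1 and Vpreb1 were lower, with sums that overlapped. The part of these cells in the Scd1, Elovl6 and Nsdhl values was not tested.

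Genes that neighbour this program were read from 2 further lists. Of 22 other lipid synthesis genes 1 was higher and 2 lower in vavCre spleen. Elovl5, an elongase of polyunsaturated fatty acids, fell by 1.16 on the log2 scale (limma-trend adjusted p = 0.00254) and Hacd3, a dehydratase of fatty acid elongation, by 0.76 (adjusted p = 0.0217). Fads1, the delta-5 desaturase, rose by 0.76 (adjusted p = 0.04). In vavCre marrow 1 was higher and 3 lower. Hsd17b12, a reductase of the same elongation cycle, fell by 0.70 (limma-trend adjusted p = 0.0345), Elovl5 by 0.78 (adjusted p = 0.0364) and Hacd3 by 0.64 (adjusted p = 0.0465). Erlin2, which takes part in sterol-dependent protein breakdown in the endoplasmic reticulum, was 0.61 higher in wild-type spleen than in marrow on the log2 scale (adjusted p = 0.0231).

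Of 10 genes of sterol export and its LXR control 3 were higher and 0 lower in vavCre spleen, and 3 higher and 1 lower in vavCre marrow. In spleen the exporter Abca1 rose by 1.07 (limma-trend adjusted p = 1.12e-05), Apoe, a lipid-carrying apolipoprotein, by 1.12 (adjusted p = 0.00233), and Npc1, which releases cholesterol from lysosomes, by 0.50 (adjusted p = 0.0494). In marrow Npc1 rose by 0.82 (limma-trend adjusted p = 0.00111), Abca1 by 0.63 (adjusted p = 0.00299) and Apoe by 0.75 (adjusted p = 0.0262). Abcg1, another exporter, fell there. Of all 10 export genes 6 had positive and 4 negative log2 changes in each tissue, with medians of 0.19 in spleen and 0.015 in marrow. Beside these lists, 0 of 18 sterol enzymes were called in vavCre spleen and 1 of 18 in vavCre marrow. Among all genes tested 5.52% were called in spleen and 7.81% in marrow.

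In Spic knockout pups 2 of the 29 genes were lower and 0 higher, where 3.95% of all genes were called, 1.47% higher and 2.48% lower. The 2 were Fdft1 and Nsdhl. Of the 18 sterol enzymes 13 had negative and 5 positive log2 changes, where 49.9% of all genes tested had negative ones. Their median was -1.59, and that of all genes tested was 0. It was -1.79 without Spic_KO replicate 1 and -1.23 without replicate 2, and -0.77 with a pseudocount of 5. Of these 18 enzymes 7 had both Spic_KO libraries below all wild-type ones and 1 had both above. With limma-trend 10 of the 29 had an unadjusted p under 0.05. Libraries did not overlap for 11 of the 29 (37.9%), against 34.2% of all genes.

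The 18 sterol enzymes summed to 0.0393 to 0.0489% of signal in RPM_d7_Spic_WT and 0.0257 and 0.0283% in RPM_d7_Spic_KO, without overlap. The 3 enzymes whose means fell most were then summed apart, a choice made after their values were seen. Taking out the largest falls flattens what remains, so this split cannot show where the difference lies. Fdft1, Ebp and Pmvk together gave 318 to 398 normalised counts in Spic_WT and 61.6 and 111 in Spic_KO. The other 15 gave 279 to 352 in Spic_WT and 294 and 346 in Spic_KO, which overlapped. Among these 15, Fdps, Sqle, Lss and Nsdhl also had both Spic_KO libraries below all Spic_WT ones, and Acat2 had both above. Fdft1 (ENSMUSG00000021273, chr14:63145150-63179578, minus strand) was 183, 197 and 224 in Spic_WT and 69.1 and 43.5 in Spic_KO. Its mean went from 201 ± 20.6 (SD, n = 3) to 56.3 ± 18.1 (n = 2), a log2 change of -1.85 (SE 0.40, limma-trend adjusted p = 0.011), or 3.61-fold lower. The call was lost without Spic_WT replicate 3 (adjusted p = 0.066) or Spic_KO replicate 2 (adjusted p = 0.104). Ctsb, whose exons overlap it, was 6880 to 10890 in Spic_WT and 9164 to 10520 in Spic_KO, a log2 change of 0.17 (limma-trend adjusted p = 0.734). Nsdhl was 32.1, 16.5 and 32.0 in Spic_WT and 2.50 and 0 in Spic_KO, the latter from 5 and 0 reads. Its log2 change was -3.84 (SE 1.01, limma-trend adjusted p = 0.0351). It was lost under 8 of 13 alternatives. Among them were leaving out any 1 Spic_WT library (adjusted p = 0.0743 to 0.160) or Spic_KO replicate 2 (adjusted p = 0.237), a pseudocount of 5 (adjusted p = 0.0555), the compared groups alone (adjusted p = 0.0526) and edgeR (adjusted p = 0.0884).

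Upstream of squalene several enzymes fell short of the threshold with separated libraries. Pmvk was 41.2, 61.3 and 62.1 in Spic_WT and 7.51 and 0.517 in Spic_KO, a log2 change of -3.94 (SE 1.13, limma-trend adjusted p = 0.0544). Fdps was 21.04 to 36.4 in Spic_WT and 9.51 and 0 in Spic_KO (-3.04, SE 1.02, limma-trend adjusted p = 0.105). Acat2, the first enzyme of the route, lay the other way, at 19.97 to 26.5 in Spic_WT and 45.6 and 72.4 in Spic_KO (1.33, SE 0.63, limma-trend adjusted p = 0.261). Hmgcs1 had a log2 change of 0.12, Mvk of -1.56, Mvd of -0.79 and Idi1 of -1.03.

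Beyond squalene the spread was similar. Ebp (ENSMUSG00000031168, chrX:8185329-8193512, minus strand) was 94.3, 116 and 112 in Spic_WT and 34.0 and 17.6 in Spic_KO, a log2 change of -2.08 (SE 0.72, limma-trend adjusted p = 0.117) without overlap. Lss was 6.83 to 13.7 in Spic_WT and 0.501 and 0 in Spic_KO (-3.16, SE 1.24, limma-trend adjusted p = 0.166). Sqle was 12.9 to 54.0 against 9.51 and 4.14 (-1.61, limma-trend adjusted p = 0.466). Hsd17b7, 0 to 4.80 in Spic_WT, was at 0 in both Spic_KO libraries. Tm7sf2, Msmo1 and Dhcr7 had log2 changes of 0.65, 0.40 and 0.67, each with overlap. The Spic_KO libraries disagreed for Msmo1, at 81.6 and 33.1 beside 32.7 to 51.2 in Spic_WT, and for Dhcr7, at 15.5 and 80.2 beside 19.3 to 24.3. For Cyp51 they disagreed too, at 17.52 and 0 beside 15.1 to 21.7 in Spic_WT.

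The size of many changes depended on which Spic_KO library was kept, and each value without the other rests on 1 Spic_KO library. Without replicate 1 the log2 changes of Pmvk, Fdps and Fdft1 were -5.18, -4.74 and -2.18, and without replicate 2 -2.69, -1.34 and -1.52. For Cyp51, Nsdhl and Sc5d they were -4.19, -4.74 and -3.35 without replicate 1. Without replicate 2 these 3 were 0.021, -2.93 and -0.35, and Stard4 was -4.65. Stard4 was 0 in Spic_KO replicate 1 and 51.7 in replicate 2, and 13.9 to 50.4 in Spic_WT. The sign of the log2 change depended on 1 Spic_KO library for 12 of the 29 genes, none of them called with both libraries in. Without replicate 1 Hmgcs1 was at -0.19, Msmo1 at -0.24, Scap at 0.088, Srebf2 at 0.23 and Stard4 at 1.07. Without replicate 2 Cyp51 was at 0.021, Dhcr7 at -0.48, Insig1 at 0.085, Acaca at -0.074, Fasn at 0.53, Scd1 at 1.35 and Scd2 at -0.94. DESeq2 on the recovered reads called Pmvk, Fdft1, Lss, Nsdhl and Ebp lower and Soat1 higher. Over all genes DESeq2 called 1694 of 13374 tested in this comparison.

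The regulators and the fatty acid genes did not pass in Spic knockout spleen. Srebf2 was 12.9, 28.7 and 9.39 in Spic_WT and 11.5 and 18.1 in Spic_KO. Scap was 47.0, 120 and 59.5 in Spic_WT and 55.6 and 74.0 in Spic_KO. Insig1 was 42.2, 15.8 and 28.8 in Spic_WT and 28.5 and 16.04 in Spic_KO. All 3 overlapped, with log2 changes of -0.07, -0.12 and -0.31. Insig2 was 43.7, 116 and 49.5 in Spic_WT and 9.01 and 33.1 in Spic_KO, which did not overlap (-1.79, SE 0.65, limma-trend adjusted p = 0.135). Soat1 was 121, 145 and 112 in Spic_WT and 208 and 277 in Spic_KO, a log2 change of 0.93 (SE 0.31, limma-trend adjusted p = 0.105), also without overlap. Scd1 was 15.7, 27.3 and 5.83 against 36.5 and 3.10, and Scd2 80.1, 113 and 98.7 against 49.6 and 189, each with the Spic_KO libraries on both sides of the wild type. Elovl6 was 0.253, 0 and 0 in Spic_WT and 3.004 and 1.04 in Spic_KO, near the lower end of detection. Acaca had a log2 change of 1.16 and Fasn of -0.24.

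Of the other lipid synthesis genes 1 was higher and 1 lower in Spic_KO, of 21 tested. Acacb, the carboxylase of the mitochondrial surface, rose by 4.11 on the log2 scale (limma-trend adjusted p = 0.0265) and Erlin2 fell by 1.35 (adjusted p = 0.0165). None of the 10 sterol export genes passed. Macrophage markers moved in these libraries, with 7 of 12 lower, and summed to 2.19 to 3.01% of signal in Spic_WT and 1.19 to 1.37% in Spic_KO. Of 10 B cell markers 3 were higher, with sums of 0.0456 to 0.0635% and 0.0657 to 0.0715%, and 1 to 2 of them at 0 in each Spic_KO library. Of 20 cell cycle genes 1 was lower. The part of these shifts, and of the lower depth of the Spic_KO libraries (2.85 to 3.07 M reads against 4.24 to 6.29 M), in the sterol enzyme values was not tested.

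In adults 0 of the 29 genes passed the test between the CreERT2 and wild-type libraries, where 0.144% of all genes were called. limma-trend gave 2 genes, Acat2 and Soat1, at an unadjusted p under 0.05, and edgeR and DESeq2 called 0 with 2 each at that level. Soat1 was 284 and 251 in RPM_TAM_WT and 558, 401, 366 and 537 in RPM_TAM_CreERT2. Every CreERT2 library lay above both wild-type ones, with a log2 change of 0.78 (SE 0.30, 95% interval 0.16 to 1.39, limma-trend adjusted p = 0.543). Acat2 was 67.0 and 13.4 in wild type and 64.3 to 92.5 in CreERT2, which overlapped (1.31, SE 0.60, limma-trend adjusted p = 0.635). Fdps was the 1 other gene without overlap, at 12.7 and 29.4 in wild type and 4.54 to 8.86 in CreERT2 (-1.45, limma-trend adjusted p = 0.752). Libraries did not overlap for 2 of 29 genes (6.9%), against 13.7% of all genes. The median log2 change of the 29 was -0.26 and that of all genes 0.

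Fdft1 was 145 and 104 in wild type and 107, 79.8, 143 and 96.3 in CreERT2. Nsdhl was 4.08 and 16.6 in wild type and 13.6, 4.43, 15.99 and 7.70 in CreERT2. Ebp was 10.6 and 26.04 in wild type and 5.68, 15.5, 23.52 and 15.4 in CreERT2. These 3 sterol enzymes overlapped between the groups. Scd1 was 313 and 164 in wild type and 178, 122, 161 and 288 in CreERT2. Scd2 was 128 and 137 in wild type and 122, 148, 105 and 30.8 in CreERT2. Elovl6 was 0.817 and 5.43 in wild type and was at 0 in 3 of the 4 CreERT2 libraries, with 4.70 in the other. The desaturases overlapped between the groups, with log2 changes of -0.35 for Scd1 and -0.59 for Scd2.

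Among the regulators Srebf2 was 20.4 and 74.5 in wild-type adults and 59.1, 22.2, 42.3 and 78.3 in CreERT2. Scap was 225 and 56.8 in wild type and 56.8, 44.3, 99.7 and 29.5 in CreERT2 (-1.10, SE 0.59, limma-trend adjusted p = 0.695). Its wild-type libraries differed by more than the group means. Insig1 was 49.8 and 20.3 in wild type and 32.9, 0, 29.2 and 15.4 in CreERT2. Insig2 was 79.2 and 43.4 in wild type and 60.2, 33.2, 64.9 and 84.8 in CreERT2. All 4 regulators overlapped between the groups. Erythroid transcripts made up 7.57 to 11.1% of signal in RPM_TAM_WT and 12.8 to 20.8% in RPM_TAM_CreERT2, with 2 of 18 markers higher, and the CreERT2 libraries were the shallowest. The part of either in these values was not tested.

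The wild-type groups of the second table allow adults to be set beside pups, although age, the TAM label and the experiment cannot be told apart, and these libraries are also the controls of the Spic_KO and CreERT2 comparisons. Of the 29 genes 1 was higher in adults, Scd1, and 1 lower, Ebp, where 3.42% of all genes were called, 1.56% higher and 1.86% lower. Scd1 went from a mean of 16.3 ± 10.8 in pups (SD, n = 3) to 238 ± 105 in adults (n = 2), a log2 difference of 3.95 (SE 0.76, limma-trend adjusted p = 0.00477). Its 6 adult libraries, CreERT2 included, lay between 122 and 313 and its 5 pup libraries of this table between 3.10 and 36.5. The call reached adjusted p = 0.214 without RPM_TAM_WT replicate 1. Ebp went from 107 ± 11.4 to 18.3 ± 10.9 (-2.61, SE 0.72, limma-trend adjusted p = 0.0495), and was lost without any 1 of the 3 Spic_WT libraries or RPM_TAM_WT replicate 1 (adjusted p = 0.161 to 0.541).

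Other genes separated these adult and pup libraries without passing the test. Soat1 was higher in adults by 1.09 on the log2 scale (SE 0.31, limma-trend adjusted p = 0.0616). Pmvk was 6.53 and 12.3 in adults and 41.2 to 62.1 in pups (-2.46, SE 1.13, limma-trend adjusted p = 0.292). Lss, Cyp51, Tm7sf2, Hsd17b7, Sc5d and Dhcr7, which act after squalene, each had both adult libraries above all pup libraries, with log2 differences from 0.83 to 1.76. Hsd17b7 rested on 19, 7 and 0 reads in the pups. Other enzymes after squalene did not all go this way. Ebp was lower, Sqle and Nsdhl had log2 differences of -1.14 and -1.50 with overlap, and Msmo1 had 0.98 with overlap. Fdft1, which makes squalene, was lower without overlap, at 145 and 104 in adults and 183 to 224 in pups (-0.70). In all 13 of 29 genes did not overlap (44.8%), against 37.6% of all genes. Of the other lipid synthesis genes Hsd17b12 fell by 2.06 (limma-trend adjusted p = 0.0375), and of the sterol export genes Apoe fell by 2.10 (adjusted p = 0.000468). In the adult libraries 5 of 10 B cell markers and 2 of 9 tested T and NK cell markers were higher and 3 of 12 macrophage markers lower. B cell sums were 0.0456 to 0.0635% in pups and 0.148 to 0.196% in adults, and the part of these cells in the adult values was not tested.

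**Figure D5:**
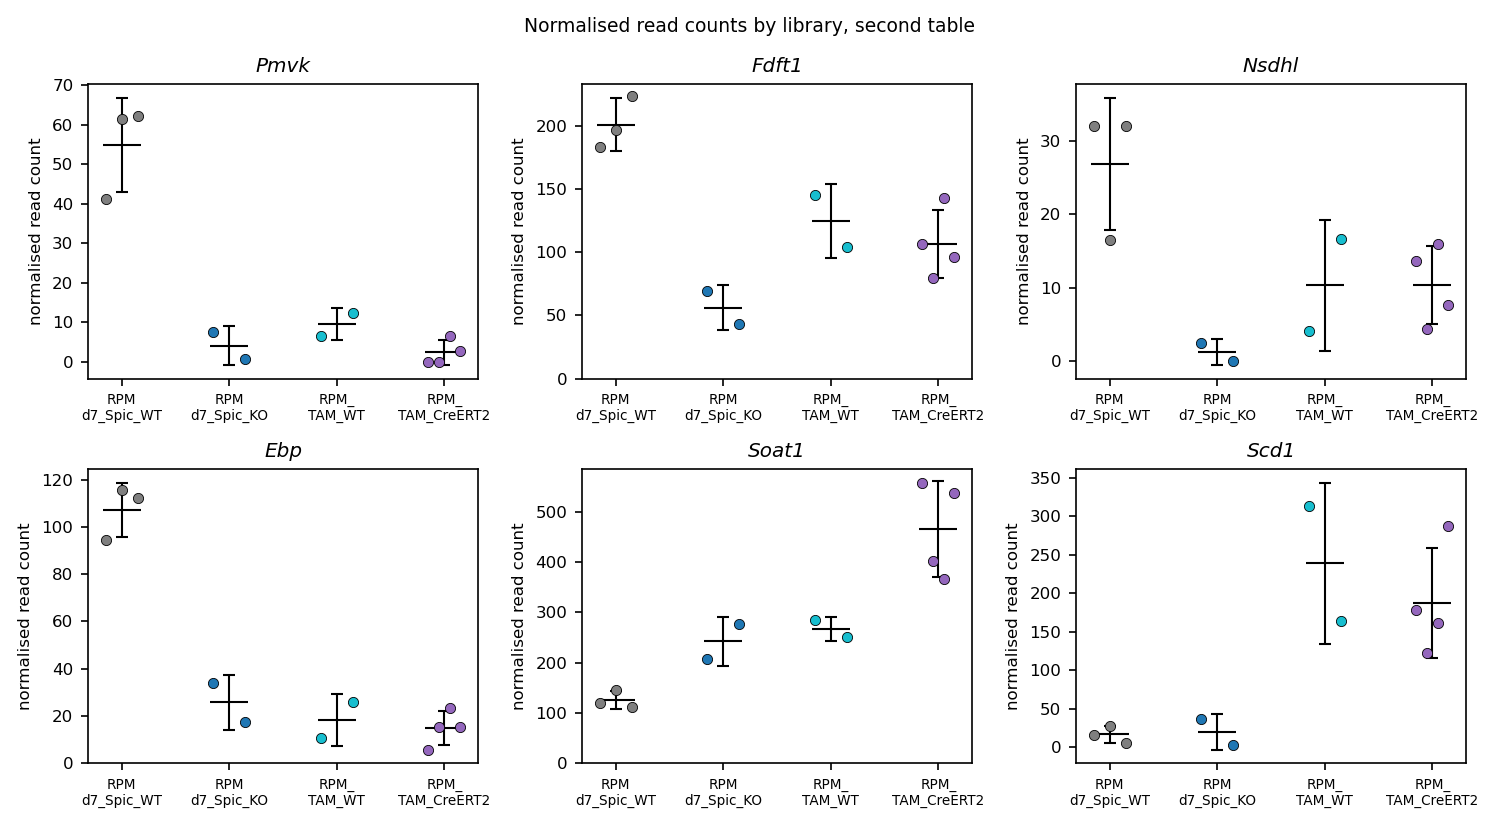
Normalised read counts of 6 synthesis genes on the y axis in each library of the 4 groups of the second table. Points are libraries, the horizontal line is the mean and bars are ± 1 SD (n = 3, 2, 2 and 4 from left to right). Pmvk, Fdft1, Nsdhl and Ebp are lower in both Spic_KO libraries than in the 3 Spic_WT ones, and Scd1 is 122 to 313 in the 6 adult libraries.

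Soat1 was the 1 gene of the 29 whose libraries were higher without overlap in all 4 comparisons of a targeted group with its own wild type, with log2 changes of 0.66, 0.77, 0.93 and 0.78. It passed the test in the first 2 of these and not in Spic_KO or CreERT2. The 4 comparisons share no library. Among the 13757 genes that passed the filter in both tables, 0.443% were higher without overlap in all 4.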

How the data were processed

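RNA of 1000 sorted macrophages per library was primed with oligo-dT, PCR-amplified and cut with the Nextera XT transposase, per the labels' protocols. The submitters' processing notes list STAR, edgeR and GRCm38 without a role or version. What the authors deposited is a signal, read counts normalised by 1 factor per library. No header says so, but dividing by that factor returned whole reads (within 0.1, up to 500 reads) for at least 97.7% of values of each library in the first table and 96.6% in the second. No column was left unused. How strand was treated is not given in the sources used here.

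Groups came from the labels. A gene was tested if 2 or more libraries held a value of 1 or more, which kept 15130 genes of the first table and 16650 of the second. Means per group were fitted to log2(value + 1) with limma 3.58.1 (R 4.3.3), using all libraries of a table, an intensity trend and robust moderation, with 8 and 7 residual degrees of freedom. A call is a Benjamini-Hochberg adjusted p under 0.05 over all genes tested, with no limit on size. The pseudocount of 1 understates changes of low genes. The code was tested on simulated data. Alternatives were no filter, a filter at 10, pseudocounts of 0.1 and 5, the compared groups alone, a replicate block, each library left out, and edgeR 4.0.16 and DESeq2 1.42.0 on the recovered reads. Coordinates are 1-based, GRCm38, from GENCODE vM21.

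The members, the gene lists and the tests were chosen with earlier results of these data known. Values in every library are given for the regulators and for each gene past the threshold in any comparison, the others by range or change. From the lists of other lipid synthesis and of sterol export genes, up to 3 called genes per comparison with the smallest p are named.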

Additional observations from a re-analysis of the deposited data

Results flagged for a closer look

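Of the 29 genes, 3 had a library of RPM_TAM_CreERT2, the 1 group with 4 libraries, that lay far from the other 3: its gap to the nearest, divided by the group's range, exceeded Dixon's critical value of 0.829. Chance gives such a gap in about 1 of 20 groups of normally distributed values. Mvd, the mevalonate diphosphate decarboxylase, was 79.8 in replicate 2 and 3.41 to 10.3 in the others. Stard4, the sterol carrier, was 39.9 in replicate 2 and 14.1 to 17.9 in the others. Elovl6, the elongase, was 4.70 in replicate 4, from 5 reads, and 0 in the others. With the others at 0 the ratio is 1 at any size, so the 1 in 20 does not apply to Elovl6. Replicate 2 is the shallowest library of the second table, at 0.693 M reads, and the part of depth in these values was not tested.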

How the results depend on the processing

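The number of the 29 genes called changed under at least 1 setting other than a left-out library in 5 comparisons. For vavCre spleen it was 2, and 3 with DESeq2. For vavCre marrow it was 4, and 3 with edgeR and 3 with DESeq2. For vavCre spleen against vavCre marrow it was 2, and 0 with no filter, 1 with a pseudocount of 0.1, 0 with a pseudocount of 5, 0 with the compared groups alone, 1 with the replicate block and 0 with edgeR, while the 2 of DESeq2 were Elovl6 and Nsdhl. For Spic_KO it was 2, and 3 with the strict filter, 3 with the compared groups alone, 0 with the replicate block (adjusted p = 0.0646 for Fdft1 and 0.129 for Nsdhl), 1 with edgeR and 6 with DESeq2. For adults against pups it was 2, and 1 with no filter, 3 with the strict filter, 1 with a pseudocount of 0.1, 4 with the compared groups alone, 3 with edgeR and 3 with DESeq2. Libraries of groups with 3 or more were also left out 1 at a time. This gave 0 to 2 for vavCre spleen (main value 2), 3 to 4 for vavCre marrow (4), 0 to 1 for the interaction (0) and 0 to 2 for the vavCre tissues (2). It gave 0 to 1 for Spic_KO (2), 1 for adults against pups (2), and 0 throughout for wild-type tissues and CreERT2. The sign of the log2 change turned under some setting, mostly a left-out library, for 7 to 17 of the 29 genes in a comparison, and for 0 of the genes called in it. Among genes called under at least 1 setting it turned for 2, both in Spic_KO: Cyp51, -2.08 with both libraries, was -4.19 without Spic_KO replicate 1 and 0.021 without replicate 2, and Stard4, -1.79 with both, was 1.07 without replicate 1 and -4.65 without replicate 2. Where a lone library stood for a group it was assumed to vary like the other groups. The cause of these changes was not tested. Counts over all genes in Spic_KO were 658 with limma-trend, 332 with the replicate block, 949 with edgeR and 1694 with DESeq2, and in CreERT2 24, 29 with edgeR and 130 with DESeq2. The median log2 change of all genes in Spic_KO was 0, -0.15 with the strict filter and -0.17 with the compared groups alone. The median of the 29 there was -0.79, and -0.55 with the strict filter, -0.44 with a pseudocount of 5, -1.09 with the replicate block, -0.37 with edgeR, -0.30 with DESeq2 and -1.09 to -0.48 on leaving out 1 library. In vavCre marrow it was 0.01, and -0.14 to 0.14 on leaving out 1 library. DESeq2 gave 0.11 for all genes in CreERT2. Same-numbered libraries correlated at -0.05 to 0.09 in their deviations from the group means, and differently numbered ones at -0.08 to 0.09. Deviations within groups of 2 or 3 libraries are bound to each other, so this cannot show whether libraries were paired. No paired analysis was possible for CreERT2 because its groups share 1 number. Libraries of the second table held 0.693 to 6.29 M reads, and a value of 0 in either table does not show that a gene was silent. Of the 18 sterol enzymes 2 and 6 were at 0 in the Spic_KO libraries, 0 to 1 in Spic_WT and 1 to 3 in the shallower CreERT2 libraries.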
